A study of Homo sapiens with 2 samples.

Results

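ERVL elements are old endogenous retroviruses of mammalian genomes, and MaLRs (mammalian apparent LTR retrotransposons) are their non-autonomous relatives, which carry no complete set of retroviral genes. A complete copy has an internal body between 2 long terminal repeats (LTRs), which hold the promoter and the polyadenylation signal, but most copies have lost the body and remain as a solitary LTR. In human embryos the HERVL body and its LTRs of the MLT2A kind are transcribed around genome activation at the 8-cell stage, under the transcription factor DUX4, and in somatic and pluripotent cells such copies are held in repressive chromatin. THE1 is the youngest MaLR group and specific to primates, MST is older, and MLT1 is the oldest and is shared by placental mammals.

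The 70 members are all names in the repeat tables that start with THE1, MST, MLT1, MLT2, HERVL or ERVL, of 5833 names in all, and they were chosen by name and not by level. By name they comprise 53 LTRs and 17 internal bodies (ending in "-int"). THE1 has 6 names, MST 8, MLT1 34, MLT2 12, HERVL 6 and ERVL 4, and the MLT2 names are all LTRs while the HERVL and ERVL names are all internal. THE1, MST and MLT1 are MaLR groups, and MLT2 holds the LTRs of ERVL elements.

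The cells belong to H9, an established line of human embryonic stem cells, and were sequenced one by one as Smart-seq2 libraries, in which RNA with a poly(A) tail is reverse transcribed and amplified. The feeder-free extended pluripotent state (ffEPSC), reached by conversion from H9, is covered by 25 cells, and the embryonic stem cell state (ESC) it was converted from by 16 cells. No transgene, drug or time point is given in the labels for either state, and both come from 1 line. Each state is 1 deposited sample, cells are not replicates, and no test between the states was possible, so every difference below describes these 2 libraries.

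The ffEPSC library held 179248893 repeat counts, from 5018790 to 9825753 per cell, and the ESC library 129041480, from 4560140 to 11088400 per cell. The 8 pluripotency markers examined were read in every cell of both states, with POU5F1 at 1061 CPM (counts in 1000000 gene counts) in ffEPSCs and 892 CPM in ESCs. POU5F1 ran from 518 to 1388 CPM per ffEPSC and from 63.5 to 1310 CPM per ESC, and 5 of 16 ESCs lay below the lowest ffEPSC. The ESC with the fewest genes read (9636) and the fewest repeat counts, cell B1 of set 1, had 100 CPM of POU5F1 and 32.9% ribosomal counts, and it was the top ESC for 32.8% of the members past the floor and for 29.4% of all repeat names past the floor. Of the genes preset as fibroblast or feeder markers, THY1 was 169 CPM in ffEPSCs and 382 CPM in ESCs, with reads in every cell of both states. The other listed genes of that group were far lower. COL1A1 was 2.28 CPM in ffEPSCs and 8.67 in ESCs, and COL1A2 15.3 in ffEPSCs and 19.2 in ESCs. THY1 alone thus does not show fibroblasts or feeders among the cells. FABP7, from the neuroectoderm list, was 1.03 CPM in ffEPSCs and 62.6 CPM in ESCs. In the other direction, the 3 listed mesoderm genes of 4 (TBXT, MIXL1 and EOMES) summed to 8.92 CPM in ffEPSCs and 0.69 CPM in ESCs, with reads in 10 or 11 of 25 ffEPSCs and in 1 to 3 of 16 ESCs. Of the listed endoderm genes, GATA4 was 0.81 CPM in ffEPSCs and 0 in ESCs, with reads in 3 ffEPSCs and 84.2% of them in 1 cell. FOXA2 was 0.40 CPM in ffEPSCs and 0.39 in ESCs. Of the listed trophoblast genes, GATA3 was 0.69 CPM in ffEPSCs and 0 in ESCs, and KRT7 1.63 in ffEPSCs and 6.93 in ESCs. The part of these markers in the results below was not tested, and SOX17, GATA6, COL3A1, LUM and DCN were not among the listed genes. Cell names carry a set number whose meaning is not given: the 25 ffEPSCs split into 3 cells of set 1, 9 of set 2, 2 of set 3 and 11 of set 4, and the 16 ESCs into 7 of set 1 and 9 of set 3. Both states occur together in sets 1 and 3 alone. The libraries shared 0 cell names, and 0 pairs of cells had identical counts.

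Of the repeat counts, 2 ribosomal RNA names took 45.3% in ffEPSCs, from 20.1% to 60.3% per cell, and 52.6% in ESCs, from 32.9% to 68.2% per cell. Levels are given as counts in 1000000 repeat counts (repeat CPM) unless the scale is named. The ribosomal share differed between the states. Each main comparison over all cells is therefore also given as counts in 1000000 repeat counts other than rRNA (non-rRNA CPM). This alternative was chosen after the data were seen. It lowers the pooled log2 ratio of the 61 members past the floor used for single members by 0.15 to 0.21, with a median of 0.21. Reads from old and young copies of a family are pooled under a name, and neither copy numbers nor lengths are in the files, so levels of different names are not compared with each other.

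Summed over the 70 members, ERVL and MaLR counts were 1.64% of repeat counts in ffEPSCs and 1.51% in ESCs. The level per cell ran from 11317 to 32369 repeat CPM in ffEPSCs with a median of 15717, and from 8405 to 21183 repeat CPM in ESCs with a median of 14657. The ranges of the 2 states overlapped, with single cells of each state beyond the range of the other, and in 51.8% of all pairs of an ffEPSC and an ESC the ffEPSC was higher. The log2 ratio of the pooled levels was 0.11 (95% interval 0.11 to 0.12 for counting error only), and 0.04 without 1 ffEPSC, cell E1 of set 1.

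In non-rRNA CPM the sum was 29971 in ffEPSCs and 31938 in ESCs, a log2 ratio of -0.09, and the ffEPSC was the higher cell in 31.8% of pairs. The direction of the sum thus flips with the scale, and neither value exceeds the spread between cells. Within set 1 the log2 ratio was 0.55 in repeat CPM and 0.16 in non-rRNA CPM, and within set 3 it was 0.26 in repeat CPM and -0.00 in non-rRNA CPM. Cell E1 had the lowest ribosomal share of all cells (20.1%) and the highest level of 41 of the 70 members among ffEPSCs in repeat CPM, and of 12 of the 70 in non-rRNA CPM. It was the top ffEPSC for 67.2% of the members past the floor and for 26.7% of all repeat names past the floor.

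**Figure D1:**
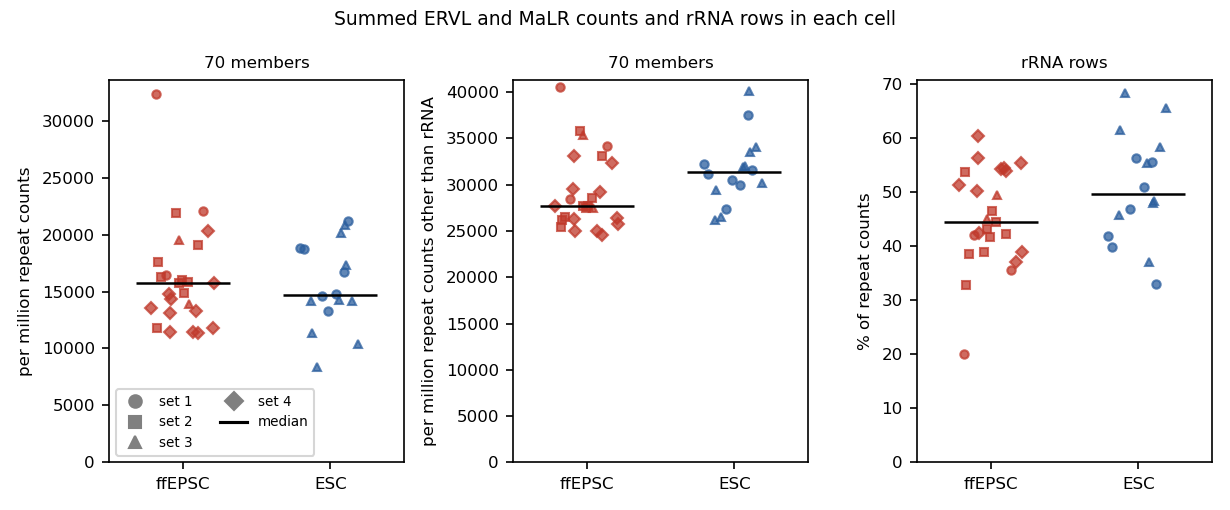
Points are single cells of ffEPSCs (left in each panel) and ESCs, marked by set, with the median as a line: the summed 70 members in repeat CPM, the same in non-rRNA CPM, and the share of the rRNA names. In the first panel the ffEPSC median is 15717 and the ESC median 14657, in the second the ffEPSC median is 27695 and the ESC median 31381, and the single ffEPSC at 32369 in the first panel is cell E1 of set 1, which has 20.1% rRNA.

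By name group, the pooled ffEPSC over ESC log2 ratio was 0.12 for THE1, 0.13 for MST, 0.12 for MLT1, -0.00 for MLT2, 0.03 for HERVL and 0.18 for ERVL. Each of these 6 pooled values lies within 0.2 of no change. Within set 1 the 6 values ran from 0.45 (MLT2) to 0.78 (HERVL), and within set 3 from 0.11 (HERVL) to 0.33 (MST). In non-rRNA CPM the values, in the same sequence of groups, were -0.09, -0.08, -0.08, -0.21, -0.18 and -0.03, so that all 6 were lower in ffEPSCs there. MLT2 had the lowest of the 6 pooled values on both scales, but without cell E1 MLT2 and HERVL were both at -0.08 in repeat CPM, and without ESC cell B1 MLT2 was at 0.04. Summed MLT2 reads ran from 523 to 2025 repeat CPM per ffEPSC with a median of 931, and from 485 to 1875 repeat CPM per ESC with a median of 1101. The MLT2 ranges overlapped over almost their whole length.

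The floor for single members was a mean of 10 repeat CPM over the libraries, which 61 of the 70 members and 1612 of the 5833 names passed. Of the 61 members, 2 were at least 2-fold higher in ffEPSCs (HERVL74-int and THE1-int), against 3.85% of all names past the floor. HERVL74-int passed the floor only through its ffEPSC level, since its ESC level was 7.94 repeat CPM. At least 2-fold lower were 0 of the 61, against 0.868% of all names. At 1.5-fold, 3 members were higher, with MLT1E as the added member, against 11.1% of all names, and 1 was lower, ERVL-int, against 4.09%. As shares of the members, the 2-fold counts are 3.28% and 0%, close to the shares of all names. The 1.5-fold counts are 4.92% higher and 1.64% lower, under the shares of all names. The cells of the states were disjoint for 0 of the 61 members, against 0.186% of all names with ffEPSCs higher and 0% with ffEPSCs lower.

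The split of directions depended on the scale. In repeat CPM, 39 of the 61 members were higher and 22 lower, against 66% and 34% of all names. In non-rRNA CPM, 20 were higher and 41 lower, against 41.6% and 58.4% of all names. The median log2 ratio of the 61 members was 0.10, beside 0.14 over all 1612 names, and in non-rRNA CPM it was -0.11 beside -0.07. Over all cells the median member thus lay slightly below the median name on both scales. Within the sets it lay above it in repeat CPM, at 0.62 beside 0.30 over all names in set 1 and at 0.30 beside 0.21 in set 3. These medians within sets are not given in non-rRNA CPM. Part of the gap within sets was shared by names like the members. For the 902 names that are not simple repeats the medians were 0.54 in set 1 and 0.26 in set 3. For 366 names starting with LTR, MER, THE1, MST or MLT they were 0.49 and 0.24, and for 76 internal names 0.71 and 0.24.

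**Figure D2:**
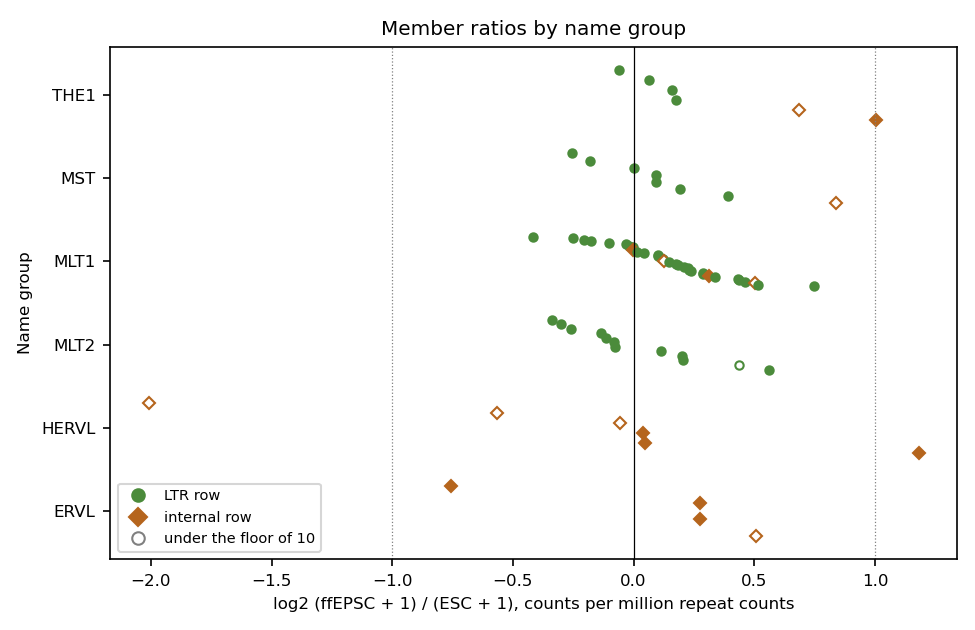
Each point is 1 of the 70 members, with its log2 ratio of ffEPSC over ESC in repeat CPM with 1 added (horizontal axis) in rows by name group. Circles are LTRs, diamonds internal bodies, open symbols lie under the floor of 10 repeat CPM, and dotted lines mark 2-fold. Most LTRs lie within 0.5 of 0, while the internal bodies spread from -2.01 (HERVL18-int, under the floor) to 1.18 (HERVL74-int).

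LTRs and internal bodies were summed apart. All LTRs together were 15582 repeat CPM in ffEPSCs and 14417 repeat CPM in ESCs (log2 0.11), and all internal bodies 798 repeat CPM in ffEPSCs and 708 repeat CPM in ESCs (log2 0.17). The LTR log2 ratio minus the internal log2 ratio was -0.06, a quantity in which the total used for scaling cancels. There were 5.12 internal counts per 100 LTR counts in ffEPSCs (3.39 to 7.35 per cell) and 4.91 in ESCs (3.70 to 6.13 per cell), and the range of the ESCs lies inside that of the ffEPSCs. The median cell was 4.8 in ffEPSCs and 5.17 in ESCs, the opposite direction to the pooled values.

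The pooled gap was larger for THE1 and MST. THE1 bodies gave 1.19 counts per 100 THE1 LTR counts in ffEPSCs (median cell 1.22) and 0.646 in ESCs (median cell 0.492), and the difference of log2 ratios, LTR minus internal, was -0.85. For MST it was -0.71, with 0.404 internal counts per 100 LTR counts in ffEPSCs and 0.226 in ESCs, but the median cell ran the other way, at 0.220 in ffEPSCs and 0.250 in ESCs. The MLT1 difference was -0.10, with a median cell of 0.597 internal counts per 100 LTR counts in ffEPSCs and 0.681 in ESCs, and for MLT2 LTRs against the HERVL and ERVL bodies it was -0.13. The THE1 difference did not hold in both sets: it was -0.58 within set 1 and 0.68 within set 3, where only 2 ffEPSCs are present.

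THE1-int is the internal body of the youngest MaLR group. It ran from 2.10 to 59.6 repeat CPM per ffEPSC with a median of 25.9, and from 1.11 to 42.7 repeat CPM per ESC with a median of 11.4. Of the 25 ffEPSCs, 17 lay above the ESC median and 6 above the highest ESC, and the groups overlapped. Pooled, it was 26.8 repeat CPM in ffEPSCs and 12.9 repeat CPM in ESCs, a log2 ratio of 1.0. Within set 1 the ratio was 1.46 and within set 3 -0.35, and it was 0.99 without cell E1 and 0.99 without ESC cell B1, which lies under 2-fold. Its log2 ratio in non-rRNA CPM was 0.83. THE1D-int (7.64 repeat CPM in ffEPSCs and 4.38 in ESCs) and MST-int (9.53 repeat CPM in ffEPSCs and 4.89 in ESCs) lie under the floor, with pooled log2 ratios of 0.68 and 0.84. Within sets, THE1D-int was -0.04 in set 1 and -0.48 in set 3, the opposite direction, and MST-int was 1.0 in set 1 and 0.97 in set 3.

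The 4 THE1 LTRs, whose copies can act as promoters of nearby genes, had pooled ratios close to 0 and larger ratios within sets. THE1B was 1076 repeat CPM in ffEPSCs and 953 in ESCs (log2 0.18), and THE1C 751 in ffEPSCs and 717 in ESCs (0.07). THE1D was 721 repeat CPM in ffEPSCs and 646 in ESCs (0.16), and THE1A 338 in ffEPSCs and 352 in ESCs (-0.06). THE1B had a log2 ratio of -0.03 in non-rRNA CPM, and in repeat CPM 0.99 in set 1 and 0.55 in set 3. THE1C was 0.35 in set 1 and -0.45 in set 3, with a change of sign. THE1D (0.49 in set 1 and 0.32 in set 3) and THE1A (0.12 in set 1 and 0.41 in set 3) were higher in ffEPSCs in both. THE1-int and the summed THE1 LTRs were weakly related across cells, with Pearson r of 0.19 over 25 ffEPSCs and 0.29 over 16 ESCs, as a description of cells that share a library.

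HERVL74-int is, by its name, an internal body of the HERVL kind. It ran from 1.12 to 117 repeat CPM per ffEPSC with a median of 14.4, and from 0 to 31.3 repeat CPM per ESC with a median of 4.4. Reads were present in 25 of 25 ffEPSCs and 12 of 16 ESCs, and 1 ffEPSC held 28.1% of the ffEPSC counts. The pooled levels were 19.3 repeat CPM in ffEPSCs and 7.94 repeat CPM in ESCs (log2 1.18), so the ESC level lies under the floor. The ratio kept its direction in set 1 (1.09), in set 3 (1.62), without cell E1 (1.14) and in non-rRNA CPM (1.03). In cells with at least 15000000 gene counts it was 0.84, which lies under 2-fold.

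HERVL-int, the body that pairs with MLT2A LTRs in the embryo, ran from 23.4 to 395 repeat CPM per ffEPSC with a median of 90.4, and from 23.5 to 224 repeat CPM per ESC with a median of 115. The pooled levels were 117 repeat CPM in ffEPSCs and 114 repeat CPM in ESCs (log2 0.05). Within set 1 the log2 ratio was 1.32, within set 3 -0.23, and without cell E1 -0.14. The sets thus disagreed in direction, and the 2 ffEPSCs above the highest ESC are both in set 1.

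MLT2A1, the LTR of HERVL-int, was 130 repeat CPM in ffEPSCs and 140 repeat CPM in ESCs (log2 -0.11), with cell medians of 108 in ffEPSCs and 153 in ESCs. MLT2A2 was 33.1 repeat CPM in ffEPSCs and 39.8 repeat CPM in ESCs (log2 -0.26). There were 72.1 HERVL-int counts per 100 counts of these 2 LTRs in ffEPSCs and 63.1 in ESCs. Within set 1 the figures were 102 in ffEPSCs and 61.1 in ESCs, and within set 3 they were 58.0 in ffEPSCs and 64.5 in ESCs, the opposite direction. HERVL-int and MLT2A1 had Pearson r in repeat CPM of 0.61 over 25 ffEPSCs and 0.73 over 16 ESCs, and 0.33 over the 24 ffEPSCs without cell E1. As shares of all member counts, the pair had r of 0.12 in ffEPSCs, 0.06 in ffEPSCs without cell E1 and 0.65 in ESCs, and in non-rRNA CPM r was 0.34 in ffEPSCs and 0.74 in ESCs. These r values describe cells that share libraries and a common total.

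**Figure D3:**
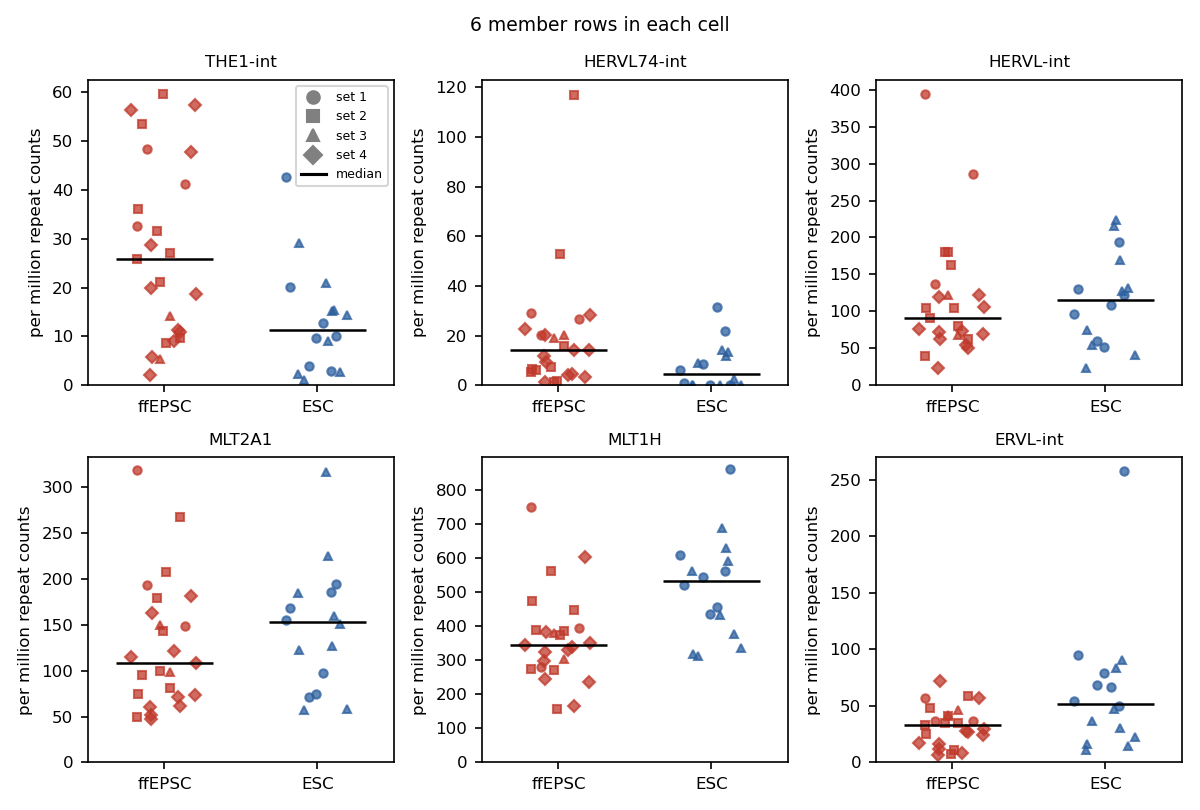
Each panel shows 1 member per cell in repeat CPM, ffEPSCs left of ESCs, marked by set with the median as a line. THE1-int and HERVL74-int have ffEPSC medians of 25.9 and 14.4 above ESC medians of 11.4 and 4.4, MLT1H and ERVL-int have ffEPSC medians of 344 and 33.4 under ESC medians of 533 and 51.9, and HERVL-int and MLT2A1 overlap over most of their range.

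The other MLT2 LTRs past the floor split in direction, and those outside the naming rule are given so that the group is complete. MLT2D was 141 repeat CPM in ffEPSCs and 123 in ESCs (log2 0.20), MLT2C1 82.9 in ffEPSCs and 71.7 in ESCs (0.21) and MLT2B2 79.6 in ffEPSCs and 73.6 in ESCs (0.11). MLT2B4 was 128 repeat CPM in ffEPSCs and 135 in ESCs (-0.08), MLT2B5 31.1 in ffEPSCs and 32.9 in ESCs (-0.08) and MLT2C2 22.5 in ffEPSCs and 24.9 in ESCs (-0.14). Of the 11 MLT2 LTRs past the floor, 4 were higher in ffEPSCs and 7 lower, and in non-rRNA CPM 2 were higher and 9 lower. Of the 30 MLT1 LTRs, 21 were higher in ffEPSCs and 9 lower in repeat CPM, while in non-rRNA CPM 12 were higher and 18 lower. Over all names past the floor, 66% were higher in repeat CPM and 41.6% in non-rRNA CPM. The MLT1 split is close to these shares on both scales, and fewer of the MLT2 LTRs were higher than these shares.

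Among the remaining bodies, ERVL-int was 32.5 repeat CPM in ffEPSCs and 55.6 repeat CPM in ESCs (log2 -0.75), with cell medians of 33.4 in ffEPSCs and 51.9 in ESCs. The ESC range was stretched by 1 cell, B1 of set 1, at 257 repeat CPM, without which the ratio was -0.55, and within set 3 the ratio was 0.26. ERVL-E-int was 318 repeat CPM in ffEPSCs and 262 in ESCs (log2 0.28), and ERVL-B4-int 123 in ffEPSCs and 101 in ESCs (0.27). HERVL40-int was 70.7 repeat CPM in ffEPSCs and 68.8 in ESCs (0.04). HERVL18-int, under the floor, was 2.44 repeat CPM in ffEPSCs and 12.9 repeat CPM in ESCs (log2 -2.01), but its reads came from 18 of 25 ffEPSCs and 11 of 16 ESCs and its top cell held 47.7% of the ffEPSC counts and 32.9% of the ESC counts.

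For 5 numbered bodies the tables list LTRs of the same number, which lie outside the name rule and were looked up after the data were seen. The LTR40 names summed to 204 repeat CPM in ffEPSCs and 291 in ESCs (log2 -0.51), and LTR66 was 24.5 in ffEPSCs and 26.9 in ESCs (-0.13). The LTR18 names summed to 7.93 repeat CPM in ffEPSCs and 7.34 in ESCs (0.10), the opposite direction to HERVL18-int. LTR32 was 35.9 repeat CPM in ffEPSCs and 34.9 in ESCs (0.04), and the LTR47 names summed to 40.7 in ffEPSCs and 31.9 in ESCs (0.34).

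MLT1H is an LTR of the oldest MaLR group. It ran from 155 to 748 repeat CPM per ffEPSC with a median of 344, and from 313 to 859 repeat CPM per ESC with a median of 533. Of the ffEPSCs, 9 lay below the lowest ESC, and 0 above the highest ESC. Pooled, it was 367 repeat CPM in ffEPSCs and 491 repeat CPM in ESCs (log2 -0.42), and -0.16 within set 1 and -0.39 within set 3. In non-rRNA CPM the ffEPSC median was 666 and the ESC median 1007, 22 of 25 ffEPSCs lay below the lowest ESC (821), 12 of 16 ESCs lay above the highest ffEPSC (959), and the log2 ratios were -0.63 in all cells, -0.55 in set 1 and -0.65 in set 3.

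In non-rRNA CPM the ffEPSC was the higher cell in 2.75% of pairs for MLT1H. A share this low or lower was seen for 5 of the 1612 names past the floor (0.31%), MLT1H included. This comparison was chosen after the values were seen. The related LTRs MLT1H1 (142 repeat CPM in ffEPSCs and 164 in ESCs, log2 -0.21) and MLT1H2 (154 in ffEPSCs and 166 in ESCs, log2 -0.10) were lower by less over all cells. In repeat CPM their direction did not hold within sets: MLT1H1 was 0.16 in set 1 and 0.02 in set 3, and MLT1H2 was 0.27 in set 1 and -0.08 in set 3. In non-rRNA CPM both were lower in both sets. MLT1H1 was -0.23 in set 1 and -0.24 in set 3 there, and MLT1H2 was -0.11 in set 1 and -0.34 in set 3.

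Other large LTR ratios in the LTR groups were those of MLT1E (0.75, at 20.8 repeat CPM in ffEPSCs and 12 in ESCs), MLT2B1 (0.56), MLT1G3 (0.51), MLT1F (0.46), MLT1E2 (0.44) and MLT1G1 (0.43). MLT2B1 was 131 repeat CPM in ffEPSCs and 88.6 in ESCs, with log2 ratios of 0.99 in set 1 and 0.80 in set 3. MLT1G3 rests largely on cell E1, without which the ratio was 0.25. The lowest besides MLT1H were MLT2F (-0.34), MLT2B3 (-0.30), MLT2A2, MSTA1 (-0.25), MLT1J1 (-0.25) and MLT1H1. In repeat CPM none of these 6 was lower in both shared sets. MLT2B3 (0.13 in set 1 and 0.05 in set 3), MLT2A2 (0.01 and 0.30), MLT1J1 (0.12 and 0.29) and MLT1H1 (0.16 and 0.02) were higher in ffEPSCs in each. MLT2F was -0.28 in set 1 and 0.36 in set 3, and MSTA1 was 0.63 in set 1 and -0.17 in set 3. In non-rRNA CPM, MLT2B3 (-0.25 in set 1 and -0.21 in set 3) and MLT1H1 (-0.23 and -0.24) were lower in both sets. MLT2F, MLT2A2, MSTA1 and MLT1J1 were not.

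MSTA, MSTB and the MLT1A names belong to the preset group of named LTRs. MSTA was 1276 repeat CPM in ffEPSCs and 1115 in ESCs (log2 0.19), and MLT1A0 877 in ffEPSCs and 743 in ESCs (0.24). MLT1A was 612 repeat CPM in ffEPSCs and 523 in ESCs (0.22), and MSTB 449 in ffEPSCs and 421 in ESCs (0.09). The same 4 log2 ratios in non-rRNA CPM were -0.01, 0.03, 0.02 and -0.11. In repeat CPM they were higher in ffEPSCs in both shared sets, at 0.37 to 0.65 in set 1 and 0.31 to 0.41 in set 3.

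Members were compared in the 2 sets that hold both states. Within set 1, 55 of the 61 members were higher in ffEPSCs, against 65.1% of all names, and 6 of them at least 2-fold (HERVL-int, HERVL74-int, MLT1E2, MLT1F, MLT1G3 and THE1-int), against 11.2%. Within set 3, 50 were higher, against 69.6% of all names, and 2 at least 2-fold (HERVL74-int and MLT1E), against 8%. These shares of all names include simple repeats, without which the median name was 0.54 in set 1 and 0.26 in set 3. The counts within sets are in repeat CPM, and the ribosomal share was lower in ffEPSCs in both sets. Its median over cells in set 1 was 35.6% in ffEPSCs and 46.7% in ESCs. In set 3 it was 47.2% in ffEPSCs and 55.4% in ESCs. The summed log2 ratio of the members was smaller in non-rRNA CPM in both sets, as given above. Higher in ffEPSCs in all cells and in both sets were 35 of the 61, against 46.7% of all names, and lower in each were MLT1F1 and MLT1H, against 14.3%. The 3 ffEPSCs of set 1 include cell E1, and ESCs of set 3 had members at a median log2 of -0.22 against ESCs of set 1, and ffEPSCs of set 4 -0.30 against ffEPSCs of set 2. Over all names past the floor the same medians were -0.22 and -0.23. Both of the members' differences between sets of 1 state are larger in size than their median of 0.10 between the states.

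**Figure D4:**
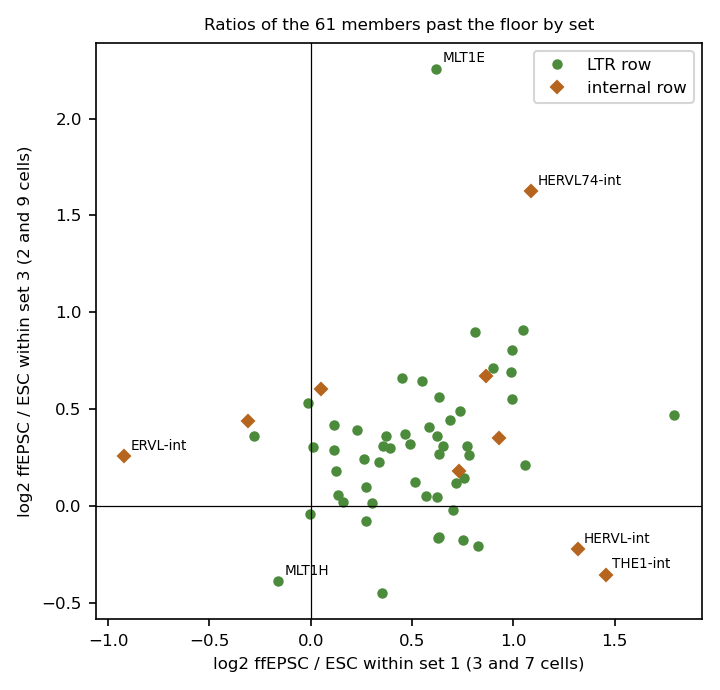
Each point is 1 of the 61 members past the floor, with its log2 ffEPSC over ESC ratio within set 1 (horizontal) and within set 3 (vertical), in repeat CPM. HERVL74-int is high in both sets (1.09 in set 1 and 1.62 in set 3), MLT1E is at the members' median in set 1 (0.62) and high in set 3 (2.26), THE1-int and HERVL-int are high in set 1 (1.46 and 1.32) and below 0 in set 3 (-0.35 and -0.23), and MLT1H is below 0 in both.

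Across cells, the summed members followed other interspersed repeats. Their level had Pearson r of 0.98 over 25 ffEPSCs and 0.97 over 16 ESCs with the MIR and L2 names, which are old short and long interspersed elements, and with the L1 names 0.99 in ffEPSCs and 0.90 in ESCs. With HERVH and its LTR7, which mark human pluripotent cells, r was 0.15 in ffEPSCs and 0.36 in ESCs. In non-rRNA CPM, r with MIR and L2 was 0.90 in ffEPSCs and 0.86 in ESCs, with L1 0.95 in ffEPSCs and 0.58 in ESCs, and with HERVH and LTR7 it turned negative, at -0.50 in ffEPSCs and -0.27 in ESCs. Cells of a state share a library and each cell's values share a total, so the r values are a description without a p. The summed ratios of these families were similar to that of the members: 0.14 for MIR and L2, 0.18 for Alu, 0.20 for L1 and 0.10 for HERVH and LTR7, all in repeat CPM.

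**Figure D5:**
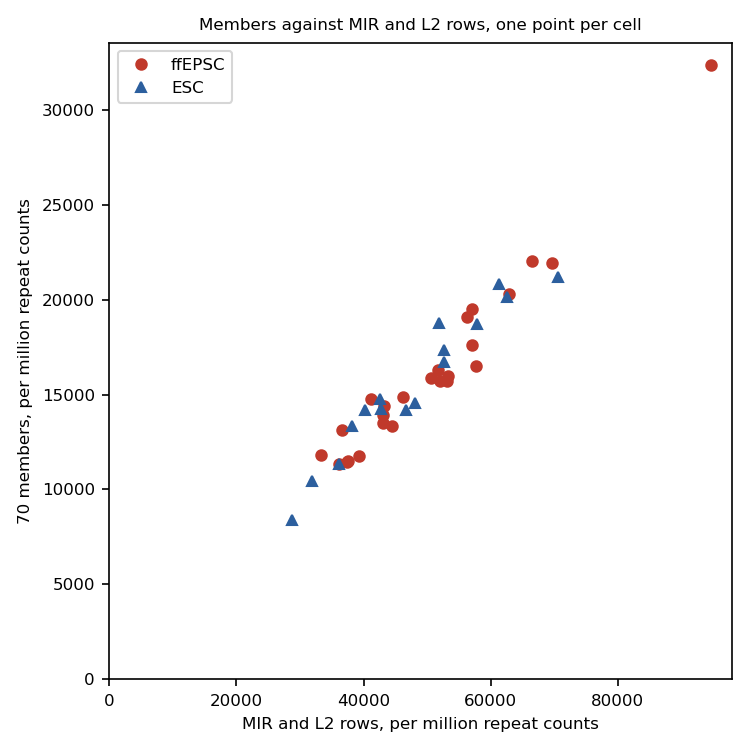
Each point is a cell, with the MIR and L2 names (horizontal axis) and the 70 members (vertical axis) in repeat CPM, ffEPSCs as circles and ESCs as triangles. Points of both states lie along 1 line, with r of 0.98 in ffEPSCs and 0.97 in ESCs.

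By median, internal bodies varied more between cells than LTRs did, and they had fewer counts. The coefficient of variation over cells had a median of 0.67 in ffEPSCs and 0.55 in ESCs for the 9 internal bodies past the floor, and of 0.40 in ffEPSCs and 0.35 in ESCs for the 52 LTRs.

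A read was present for 57 of the 70 members in each of the 41 cells, and 13 lacked one in at least 1 cell. After each cell was thinned to 4500000 repeat counts, 56 were read in each cell. At that depth a cell had reads for 63 to 70 members in ffEPSCs (median 67) and 62 to 69 in ESCs (median 66). The names read in fewest cells were ERVL47-int (8 of 25 ffEPSCs and 4 of 16 ESCs) and HERVL32-int (6 of 25 ffEPSCs and 8 of 16 ESCs).

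Genes that turn on with HERVL in the 8-cell embryo were looked up among the gene counts. Of 26 such genes, 3 were listed, and DUX4, ZSCAN4, LEUTX and TPRX1 were not among them. ARGFX was 0.18 CPM in ffEPSCs and 0.49 CPM in ESCs, and SLC34A2 2.87 CPM in ffEPSCs and 5.41 in ESCs. CCNA1, a meiotic cyclin, was 7.15 CPM in ffEPSCs and 0.96 in ESCs. CCNA1 reads came from 10 of 25 ffEPSCs and 2 of 16 ESCs, and its log2 ratio was -1.43 in set 3. In set 1 its ratio was exactly 0, the value of a gene without reads in either state, and does not show equal levels. The same holds for ARGFX in set 1. All 3 lay under the floor for genes of a mean of 5 CPM in pooled libraries.

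Of 30 genes that repress ERVL elements or the chromatin they lie in, 30 passed the gene floor. Their median log2 ratio was -0.16, beside 0.03 over 10230 genes, with 13 higher and 17 lower. The share of all genes in each direction is not given, so this split is a description only. At least 2-fold higher was 1, RCOR1 (25.1 CPM in ffEPSCs and 11.1 CPM in ESCs, log2 1.1), a partner of the demethylase KDM1A, against 6.88% of all genes. At least 2-fold lower was 1, SMCHD1 (23.4 CPM in ffEPSCs and 48.2 CPM in ESCs, log2 -1.01), a chromatin protein, against 4.91%. RCOR1 was 1.04 in set 1 and 0.81 in set 3, and SMCHD1 was -1.11 in set 1 and -0.36 in set 3. The list median was 0.13 in set 1 and 0.27 in set 3, so its direction did not hold within sets. No median over all genes is given within the sets to set beside these values.

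UHRF1, which guides maintenance methylation, was 20.3 CPM in ffEPSCs and 37.9 CPM in ESCs (log2 -0.87), and the ratio was smaller within sets, at -0.32 in set 1 and -0.12 in set 3. TRIM28, the corepressor recruited by zinc finger proteins, was 247 CPM in ffEPSCs and 185 CPM in ESCs (log2 0.42), with 0.53 in set 1 and 0.56 in set 3. SETDB1, its histone methyltransferase partner, was 12.5 CPM in ffEPSCs and 15.8 CPM in ESCs (log2 -0.32), and its sign turned between the sets, at 0.55 in set 1 and -1.64 in set 3. ASF1A, a histone chaperone, was 118 CPM in ffEPSCs and 190 CPM in ESCs (log2 -0.68), with -0.59 in set 1 and -0.95 in set 3.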

How the data were processed

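The authors deposited whole-number counts per cell for 22474 genes and 5833 repeat names, without normalization. The submitters' processing notes list HISAT2 2.2.1, SAMtools 1.6, bcl2fastq, Subread 2.0.6 and featureCounts, with CHM13 (telomere to telomere) and GRCh38 as builds. How multi-mapping reads and strand were treated in counting, and which repeat annotation served, is not stated there. Of non-zero gene counts 98.4% in ffEPSCs and 98.5% in ESCs were even, against 49.4% of repeat counts in ffEPSCs and 49.7% in ESCs.

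Each state's cells were pooled by adding their counts, which were divided by the total repeat counts (or gene counts, for genes) and multiplied by 1000000. A ratio is log2((ffEPSC + 1)/(ESC + 1)). Intervals are exact (Poisson for levels, conditional binomial for ratios), at 95%, and cover counting error only. Smart-seq2 has no molecular identifiers, so amplified copies of a molecule are counted separately and the intervals may be too narrow even for counting error. Members were called at 2-fold with a mean of at least 10 repeat CPM, genes with 5 CPM. No p-value was computed, since each state is 1 sample. No cell was removed and doublets were not called. Named members are the 8 largest and 8 smallest ratios past the floor that point the same way when cell means are used, together with a set group of names (the HERVL, ERVL and MLT2A names, the THE1, MSTA, MSTB and MLT1A names and their bodies). The members, lists and rules were chosen with earlier results of these data known. The pooling steps were tested on simulated data. Python 3.11.15, numpy 2.4.6, pandas 2.3.3 and scipy 1.17.1 were used. Sequences of the repeats are not analysed here.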

Additional observations from a re-analysis of the deposited data

How the results depend on the processing

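Log2 ratios of ffEPSC over ESC are given for the summed members and then for the median of the 61 members. The values reported above were 0.11 and 0.10. They were 0.056 and 0.065 with the mean of the cells in place of the pooled sum, 0.094 and 0.080 with gene counts as the total, 0.13 and 0.11 with counts of names that are not simple repeats as the total, -0.020 and -0.034 after subtracting the median of all names past the floor, 0.55 and 0.62 within set 1, 0.26 and 0.30 within set 3, 0.034 and 0.045 in cells with at least 15000000 gene counts, and 0.062 and 0.093 without the top cell of each library. The following 3 settings were chosen after seeing the data: scaling to repeat counts other than rRNA gave -0.092 and -0.11, leaving out ffEPSC cell E1 of set 1 gave 0.041 and 0.030, and leaving out ESC cell B1 of set 1 gave 0.14 and 0.11. In the setting without the top cell, that cell was chosen separately for each sum and each member, so members can lose different cells. Without a floor the median was 0.11. The directions therefore turn with centring and with the rRNA scale. The number of members at least 2-fold higher was 2 as reported, 6 within set 1, 0 at a floor of 100 repeat CPM, and 1 with the mean of the cells, gene counts, centring, deeper cells, the rRNA scale, cell E1 left out or cell B1 left out. In deeper cells the 1 member at 2-fold was MLT1E (1.08), with HERVL74-int at 0.84 and THE1-int at 0.96. At least 2-fold lower was 1 without a floor, against 0. THE1-int was reversed within set 3, at -0.35. LTR minus internal, -0.06 as reported, was -0.026 with the mean of the cells, -0.14 within set 1, 0.024 within set 3, 0.015 in deeper cells, -0.040 without the top cell and -0.029 without cell E1. The median of the 3 listed 8-cell genes, -0.34 over all cells, was -0.89 with 0.1 added, -0.28 with the mean of the cells, -1.43 within set 3 and -0.30 in deeper cells. Within set 1 it was 0.00, which rests on the ratios of exactly 0 of ARGFX and CCNA1 and does not show equal levels. The repressor median, -0.16 as reported, was -0.13 with the mean of the cells, 0.13 within set 1, 0.27 within set 3 and -0.14 in deeper cells. The cause of these changes was not tested. Of the 37 named members and name groups, 12 changed sign on the rRNA scale, 13 within set 3 and 9 within set 1. No paired analysis was possible because each state is 1 sample. At these depths the intervals for counting error are narrow beside the spread between cells.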
